A study of Cavia porcellus with 35 samples.

Results

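The genes described are the acetylcholine receptors, the esterases that break acetylcholine down, and PRIMA1, the membrane anchor of acetylcholinesterase. They were chosen by name: the muscarinic receptors CHRM1, CHRM2, CHRM3 and CHRM4, the nicotinic subunits CHRNA4 and CHRNA7, the esterases ACHE and BCHE, and PRIMA1, which was added because it changed strongly between sGC and control F1 females. Of the 10 named symbols, 9 had counts in all 4 tables, among 12100 symbols with counts in any table. CHRNB2, the usual partner of CHRNA4 in brain nicotinic receptors, was not analysed here. All 9 genes passed the low-count filter in every table.

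RNA was sequenced from punches of the guinea pig (Cavia porcellus) medial prefrontal cortex (mPFC) at postnatal day 40. Betamethasone, the synthetic glucocorticoid (sGC) of the study, was given to pregnant animals in late gestation in 3 courses of 1 mg/kg, and control pregnancies received saline. The F1 animals were exposed in the womb, whereas the F2 and F3 females came through the paternal line, from F1 and F2 males mated with non-experimental females, so that the animal exposed in the womb was the father of an F2 female and the grandfather of an F3 female. The groups were F1 females (4 control, 4 sGC), F2 females (4 control, 4 sGC), F3 females (4 control, 4 sGC) and F1 males (5 control, 6 sGC). No transgene or mutation was involved, and control means descent from saline-treated pregnancies. The study's methods state that the females of a group came from separate litters and that animals were taken according to how much good RNA they gave, and nothing comparable is stated of the males' litters.

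Acetylcholine reaches the prefrontal cortex mainly from neurons of the basal forebrain, whose cell bodies lie outside the cortex, so a cortical punch holds the receptors and the breakdown machinery but few of the cells that make the transmitter. M1 and M3 receptors (CHRM1, CHRM3) couple through Gq proteins and raise neuronal excitability, while M2 and M4 receptors (CHRM2, CHRM4) couple through Gi proteins and often restrain transmitter release. Nicotinic receptors are ion channels: those with the CHRNA4 subunit bind nicotine with high affinity, and CHRNA7 forms channels of its own with high calcium permeability. Acetylcholinesterase (ACHE) ends the signal within the synapse and is tethered to neuronal membranes by PRIMA1. Butyrylcholinesterase (BCHE) is the slower, broader esterase and is made largely by glia in the brain.

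Libraries held 12819964 to 31763585 counted reads, with the deepest in F1 males. The labels name the tissue as prefrontal cortex but their extraction text speaks of the paraventricular nucleus, while the methods describe punches of cingulate area 1 and infralimbic cortex. The summed level of the paraventricular nucleus markers was only 6.58 to 19.3 CPM (counts scaled to a common library total) over all animals, with OTP and TRH not analysed in any table. The F1 female controls stood apart from F2 females and F1 males, and in part from F1 sGC females and F3 controls. Their summed cortical excitatory neuron markers (SLC17A7, NEUROD6, EMX1) were 1076, 346, 185 and 259 CPM in replicates 1 to 4, against 1375 to 1788 CPM over all F2 females and F1 males and 521 to 890 CPM in F3 controls, within the span of the F1 controls. Their summed striatal medium spiny neuron markers ran from 594 to 2710 CPM, against 249 to 627 CPM in F1 sGC females, 115 to 254 CPM in F2 females and F1 males and 334 to 1019 CPM in F3 controls. F1 sGC female replicate 4 stood apart in the other direction, with 3976 CPM of excitatory markers. The results in F1 females rest on these controls and cannot be given without the group. Fits without each animal in turn are therefore given for CHRM2, CHRM3, CHRNA4 and BCHE. For the other genes named in F1 females, the pathway genes included, they are not given one by one.

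CHRM3, the M3 receptor, was up-regulated in F1 sGC females, with about 2-fold more transcript than in controls. The controls had 257, 163, 139 and 149 CPM and the sGC animals 342, 344, 317 and 437 CPM. Every sGC female lay above every control, although control replicate 1 was well above the other controls. The mean was 177 ± 54.6 CPM in control animals and 360 ± 52.8 CPM in sGC animals (SD, n = 4 each), a log2 fold change of 1.03 (SE 0.20) with an FDR of 0.0128 by edgeR's quasi-likelihood test. The call held in all 8 fits that left out 1 animal, with log2 fold changes from 0.92 to 1.29. The excitatory marker sum moved with it (control animals 185 to 1076 CPM, sGC animals 966 to 3976 CPM, with 0 of 3 markers passing on their own and TBR1 not analysed), as did the striatal sum given above in the opposite direction (5 of 8 markers lower). The astrocyte sum (3163 to 3805 CPM in control animals, 2566 to 2759 CPM after sGC, 3 of 5 markers lower) and the microglia sum (216 to 268 and 163 to 184 CPM, 3 of 4 lower, C1QA not analysed) were also lower in every F1 sGC female. These 4 lists differed between the same animals in which every F1 female result was measured, and their part in the results was not tested. In whole punches, fewer cells of a type and less RNA per cell cannot be told apart, here or in any result that follows.

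In F2 females CHRM3 did not pass, with control values of 171, 155, 203 and 168 CPM and sGC values of 176, 174, 163 and 116 CPM. The ranges overlapped and the last sGC animal was the lowest of the 8. The log2 fold change was -0.15 (SE 0.13, FDR 0.602 by edgeR's quasi-likelihood test). In F3 females the sGC animals, at 128, 129, 147 and 137 CPM, all lay above the controls, at 111, 82.4, 116 and 78.6 CPM. The fitted log2 fold change was 0.48 (SE 0.13), with an FDR of 0.0941 by edgeR's quasi-likelihood test, 0.0113 by its likelihood ratio test and 0.00976 by DESeq2, so the call depended on the tool. The excitatory marker sum was also higher in each F3 sGC female (1034 to 1289 CPM) than in any F3 control (521 to 890 CPM), with 0 of 3 markers passing, and its part in the result was not tested. In F1 males CHRM3 ran from 178 to 215 CPM in 5 controls (median 194) and from 163 to 187 CPM in 6 sGC animals (median 177). The males overlapped, with 3 of 6 sGC males below every control, and the log2 fold change was -0.15 (SE 0.05, FDR 0.0800 by edgeR's quasi-likelihood test, 0.0455 by DESeq2), in males whose excitatory marker sums overlapped (1478 to 1788 and 1495 to 1620 CPM).

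CHRM2, the M2 receptor, was up-regulated in F1 sGC females by a smaller amount. The controls had 22.5, 18.4, 18.4 and 19.2 CPM and the sGC animals 28.4, 20.9, 28.9 and 27.8 CPM. Of the sGC females, 3 lay above every control and replicate 2 lay within the control range. The mean went from 19.6 ± 1.97 to 26.5 ± 3.75 CPM (SD, n = 4 each), with a log2 fold change of 0.43 (SE 0.12, FDR 0.0380 by edgeR's quasi-likelihood test). This call was fragile: it held in only 2 of 8 fits with 1 animal left out (FDR up to 0.100, without control replicate 3), and upper-quartile normalization gave an FDR of 0.0516. The excitatory, striatal, astrocyte and microglia sums given for CHRM3 differed between these animals too, and their part in the result was not tested. The 6 animals whose removal ended the call were control replicates 2, 3 and 4 and sGC replicates 1, 3 and 4.

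CHRM2 had similar fitted differences in the later generations without passing the test. F2 controls had 19.7, 18.9, 20.0 and 13.7 CPM and F2 sGC females 23.8, 18.8, 29.8 and 24.2 CPM, which overlapped (log2 fold change 0.42, SE 0.15, FDR 0.210 by edgeR's quasi-likelihood test). F3 controls had 14.2, 11.8, 15.4 and 11.4 CPM, all below the 19.1, 18.2, 17.9 and 18.1 CPM of F3 sGC females. The F3 log2 fold change was 0.48 (SE 0.10), with an FDR of 0.0563 by edgeR's quasi-likelihood test, 0.00250 by the likelihood ratio test and 0.00435 by DESeq2. The excitatory marker sums given for CHRM3 were also higher in every one of these F3 sGC females than in any F3 control, and their part was not tested. In F1 males the ranges overlapped widely, from 21.1 to 33.5 CPM in controls (median 26.7) and from 26.6 to 34.1 CPM in sGC animals (median 28.6), with a log2 fold change of 0.17 (SE 0.11, FDR 0.382 by the same test).

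**Figure D1:**
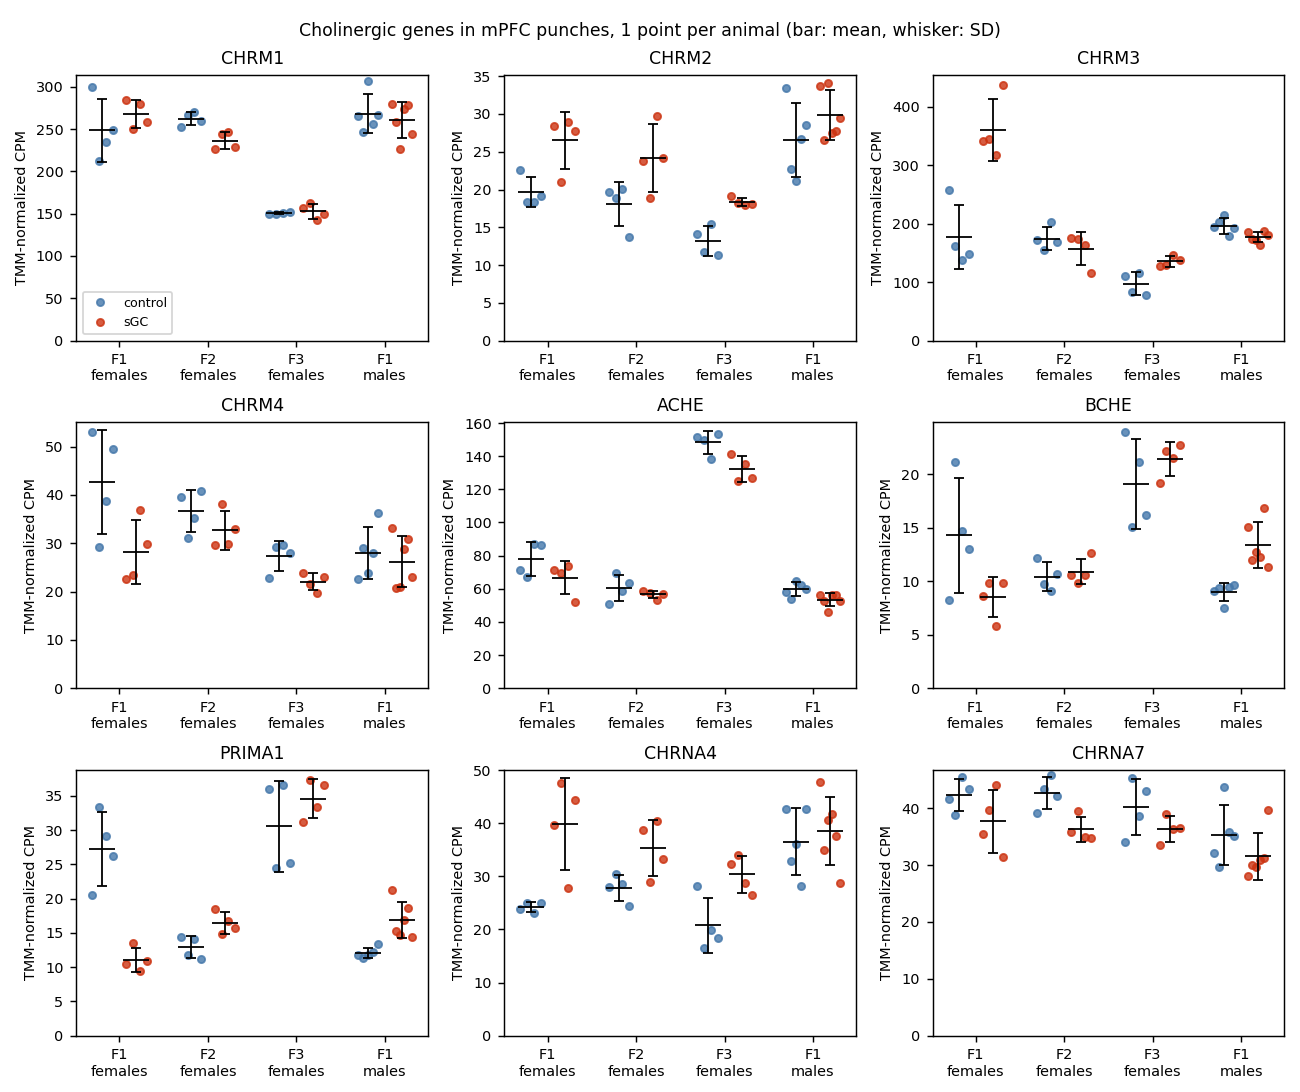
TMM-normalized CPM (vertical axis, from 0) of the 9 genes in each animal, with control in blue and sGC in red for F1, F2 and F3 females and F1 males (horizontal axis); black bars are group means and whiskers the SD. The CHRM3 panel shows F1 sGC females at 317 to 437 CPM above all F1 controls, and the BCHE panel shows the 6 sGC males at 11.3 to 16.9 CPM above the 5 control males.

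CHRM1, the M1 receptor and the main muscarinic receptor of cortical pyramidal neurons, passed the test in no table. F1 controls had 300, 212, 235 and 249 CPM and F1 sGC females 284, 250, 280 and 258 CPM, all of the latter within the control range (log2 fold change 0.11, SE 0.10, FDR 0.484 by edgeR's quasi-likelihood test). In F2 females every sGC animal (227, 244, 247 and 229 CPM) was below every control (252, 267, 270 and 259 CPM). The F2 difference was small, -0.15 on the log2 scale (SE 0.06), and its FDR was 0.232 by the same test. Summed upper-layer neuron markers were likewise lower in every F2 sGC female (360 to 511 CPM) than in any F2 control (537 to 710 CPM), with 0 of 5 markers passing and STARD8 not analysed, and their part was not tested. The F3 controls were tightly grouped at 149, 150, 151 and 153 CPM, and the sGC animals at 157, 163, 142 and 150 CPM fell on both sides of them (log2 fold change 0.02, with a sign that turned under upper-quartile normalization). In F1 males the log2 fold change was -0.04 (FDR 0.737 by edgeR's quasi-likelihood test).

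CHRM4, the M4 receptor, which is most abundant in striatal neurons, had a lower sGC mean in each table and passed in none. In F1 females the controls had 53.0, 29.3, 38.8 and 49.4 CPM and the sGC animals 22.5, 23.4, 36.8 and 29.8 CPM. The ranges overlapped, with 2 of 4 sGC females below every control. The log2 fold change was -0.60 (SE 0.21), with an FDR of 0.0832 by edgeR's quasi-likelihood test, 0.0401 by the likelihood ratio test and 0.0425 by DESeq2. The summed striatal markers given above moved the same way in these animals, and their part in the result was not tested. F3 controls had 22.9, 29.1, 29.5 and 28.0 CPM and F3 sGC females 23.9, 21.6, 19.7 and 23.0 CPM (log2 fold change -0.31, SE 0.10, FDR 0.142 by edgeR's quasi-likelihood test), with summed striatal markers of 334 to 1019 CPM in F3 controls and 208 to 475 CPM in F3 sGC females (0 of 8 passing). The fitted differences in F2 females and F1 males were -0.17 and -0.10 on the log2 scale, with overlapping ranges. There the striatal sums overlapped and had slightly higher sGC means. They were 156 to 208 CPM in F2 controls and 138 to 254 CPM in F2 sGC females. In males they were 115 to 157 CPM in controls and 135 to 162 CPM after sGC. The part of these sums was not tested in any table.

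The balance between receptors of the same library was also tabulated, a measure chosen after the values were seen and given without a test. Reads of CHRM3 per read of CHRM1 were 0.591 to 0.858 in F1 female controls and 1.13 to 1.70 in F1 sGC females. The same ratio was 0.515 to 0.773 in F3 controls and 0.791 to 1.04 in F3 sGC females. In F2 females it overlapped, at 0.582 to 0.754 and 0.507 to 0.777, as it did in F1 males, at 0.696 to 0.822 and 0.596 to 0.764. Reads of CHRM2 per read of CHRM4 were likewise apart in F1 females (0.388 to 0.629 in controls, 0.786 to 1.26 in sGC animals) and in F3 females (0.404 to 0.620 and 0.787 to 0.909), and overlapped in the other tables. These ratios depend on transcript length and are comparable only between animals of a table.

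CHRNA4, the nicotinic subunit of the high-affinity receptor, was up-regulated in F1 sGC females. The controls were close together at 23.9, 25.0, 23.1 and 25.0 CPM, whereas the sGC animals had 39.8, 47.5, 27.9 and 44.3 CPM. No sGC female overlapped the controls, and replicate 3 was the nearest to them. The mean rose from 24.2 ± 0.943 to 39.9 ± 8.60 CPM (SD, n = 4 each), with a log2 fold change of 0.72 (SE 0.15, FDR 0.0160 by edgeR's quasi-likelihood test). All 8 fits with 1 animal left out kept the call, with an FDR of at most 0.0496. Summed deep-layer neuron markers were 443, 511, 412 and 391 CPM in F1 controls and 749, 879, 364 and 693 CPM in F1 sGC females (1 of 6 markers higher), with sGC replicate 3 the lowest and replicate 2 the highest for both the sum and CHRNA4. Mature oligodendrocyte marker sums had the same lowest and highest sGC animals, at 6279, 7396, 3658 and 6096 CPM. In controls they were 4650, 15770, 10094 and 7915 CPM, in another order than CHRNA4. The other lists of F1 females given for CHRM3 differed between these animals as well, and the part of any list in the result was not tested.

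In the other female generations the CHRNA4 means were higher after sGC, and the test did not pass. F2 controls had 28.0, 30.5, 28.5 and 24.5 CPM and F2 sGC females 38.8, 29.0, 40.4 and 33.3 CPM, so 3 of 4 sGC animals exceeded every control (log2 fold change 0.35, SE 0.11, FDR 0.162 by edgeR's quasi-likelihood test). Of 8 fits with 1 animal left out only 1 passed, and their FDRs ran from 0.0372 (without sGC replicate 2) to 0.376 (without control replicate 4). The F2 deep-layer marker sums were 546, 579, 476 and 513 CPM in controls and 728, 508, 691 and 672 CPM in sGC animals, with replicate 2 again the lowest sGC animal. Mature oligodendrocyte sums were 5041, 3795, 3251 and 3261 CPM in F2 controls, in another order than CHRNA4. In F2 sGC females they were 8804, 4821, 11351 and 7355 CPM, in the same order of animals as CHRNA4. The part of either list was not tested. F3 controls had 28.2, 16.6, 20.0 and 18.4 CPM and F3 sGC females 32.3, 34.1, 28.8 and 26.4 CPM. Here control replicate 1 was the high one, and the log2 fold change of 0.55 (SE 0.16) had an FDR of 0.112 by the quasi-likelihood test, 0.0240 by the likelihood ratio test and 0.0250 by DESeq2. With 1 animal left out, 1 of 8 quasi-likelihood fits passed, with FDRs from 0.00835 (without control replicate 1) to 0.289 (without control replicate 2). Deep-layer marker sums in F3 controls were 612, 362, 499 and 392 CPM, in the same order of animals as CHRNA4. In F3 sGC animals they were 670, 567, 666 and 615 CPM, with the lowest sum in replicate 2, the animal highest for CHRNA4. Mature oligodendrocyte sums had the CHRNA4 order in controls too, at 7581, 2908, 5081 and 3741 CPM. In sGC animals they were 5637, 7273, 5130 and 6532 CPM, in another order than CHRNA4. Again neither list's part was tested. In F1 males CHRNA4 was 36.5 ± 6.29 CPM in the 5 control animals and 38.5 ± 6.45 CPM in 6 sGC animals (SD), a log2 fold change of 0.08 (SE 0.13, FDR 0.769 by edgeR's quasi-likelihood test).

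CHRNA7, the subunit of the homomeric nicotinic channel, had a lower sGC mean in every table and passed in none. The control means were 42.3, 42.7, 40.3 and 35.3 CPM in F1, F2 and F3 females and F1 males, and the sGC means were 37.7, 36.3, 36.3 and 31.6 CPM in the same order. The fitted log2 fold changes were -0.17, -0.23, -0.15 and -0.16, with FDRs of 0.293, 0.152, 0.458 and 0.361 by edgeR's quasi-likelihood test. The F2 females came nearest to separating, with controls at 39.1, 43.5, 45.9 and 42.2 CPM and sGC animals at 35.8, 39.5, 34.9 and 34.8 CPM, of which only replicate 2 reached the control range.

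ACHE, the main acetylcholine-degrading enzyme of the synapse, also had a lower sGC mean in every table without passing. F1 female controls had 71.4, 67.2, 86.9 and 86.3 CPM and sGC animals 71.4, 69.7, 73.7 and 52.1 CPM (log2 fold change -0.22, SE 0.13, FDR 0.241 by edgeR's quasi-likelihood test). F3 females had the largest ACHE values of any table, 148 ± 6.86 CPM in control animals and 132 ± 7.74 CPM in sGC animals (SD, n = 4 each), with a log2 fold change of -0.17 (SE 0.06, FDR 0.180). The F2 females and F1 males had log2 fold changes of -0.10 (FDR 0.630) and -0.17 (SE 0.06, FDR 0.114) by the same test. Among the 8 groups ordered by ACHE mean, the ranges of neighbours overlapped at 6 of 7 steps, and the single gap lay between the F3 groups and the rest. The tables were counted separately, so this order across tables is a description.

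BCHE, the second cholinesterase, was up-regulated in F1 sGC males. Control males had 9.06, 9.32, 7.53, 9.42 and 9.67 CPM, and sGC males ran from 11.3 to 16.9 CPM with a median of 12.5 CPM. Every sGC male lay above every control. The mean rose from 9.00 ± 0.851 CPM (SD, n = 5) to 13.4 ± 2.13 CPM (SD, n = 6), a 1.48-fold difference with a log2 fold change of 0.57 (SE 0.11, FDR 0.00805 by edgeR's quasi-likelihood test). All 11 fits with 1 animal left out kept the call. Summed mature oligodendrocyte markers moved with it, from 3534 to 6673 CPM in control males and from 7534 to 12881 CPM in sGC males, with 8 of 8 measured markers higher and MBP and MOBP not analysed. Summed oligodendrocyte precursor markers went from 515 to 715 CPM in control males to 759 to 1041 CPM in sGC males, with 4 of 6 higher. The part of either in the BCHE result was not tested.

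In F1 females BCHE had the opposite sign and did not pass by the quasi-likelihood test. The controls had 8.23, 21.2, 14.6 and 13.0 CPM and the sGC animals 8.59, 9.78, 5.81 and 9.87 CPM. Control replicate 1 sat within the sGC range and control replicate 2 far above it. The log2 fold change was -0.74 (SE 0.28, FDR 0.0977 by edgeR's quasi-likelihood test), and over the 8 fits with 1 animal left out it ran from -0.91 (FDR 0.0284, without control replicate 1, the only fit that passed) to -0.49 (FDR 0.221, without control replicate 2). Precursor markers summed to 475 to 1211 CPM in these controls and 449 to 586 CPM in the sGC animals, with 0 of 6 passing. F2 and F3 females had overlapping BCHE ranges and log2 fold changes of 0.06 and 0.16, with FDRs of 0.851 and 0.613 by the same test. In F2 females the precursor sums were 672 to 860 CPM in controls and 840 to 1166 CPM after sGC. Their mature oligodendrocyte sums were 3251 to 5041 and 4821 to 11351 CPM, so both lists had higher sGC means where BCHE hardly differed. In F3 females the precursor sums overlapped (1198 to 2079 and 1614 to 2001 CPM). The part of these lists was not tested.

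PRIMA1, the proline-rich anchor that holds acetylcholinesterase at the neuronal surface, differed most in the table on which it was chosen. F1 female controls had 20.5, 33.3, 29.1 and 26.3 CPM and F1 sGC females 10.4, 13.6, 9.41 and 10.8 CPM. The sGC mean was 0.406 of the control mean by the fit, 27.3 ± 5.40 against 11.1 ± 1.78 CPM (SD, n = 4 each), with log2 fold change -1.30. These values put PRIMA1 among the genes described, so they carry no test. The mature oligodendrocyte marker sum in the same animals was 4650 to 15770 CPM in control animals and 3658 to 7396 CPM in sGC females, with 0 of 8 markers passing.

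In F1 males, whose values did not enter the choice, PRIMA1 was up-regulated. Control males had 11.8, 11.3, 11.8, 12.2 and 13.3 CPM, and sGC males ran from 14.5 to 21.3 CPM with a median of 16.1 CPM. Again no sGC male overlapped the controls. The mean rose from 12.1 ± 0.760 CPM (SD, n = 5) to 16.9 ± 2.69 CPM (SD, n = 6), with log2 fold change 0.48 (SE 0.10, FDR 0.0118 by edgeR's quasi-likelihood test), and this call was kept whichever of the 11 animals was left out. The oligodendrocyte marker sums of the males given for BCHE moved with PRIMA1 too, and their part in the result was not tested. Reads of PRIMA1 per read of ACHE, a ratio chosen after the values were seen, were 0.183 to 0.223 in control males and 0.276 to 0.378 in sGC males. The ratio overlapped in F2 females (0.170 to 0.285 and 0.260 to 0.315) and in F3 females (0.163 to 0.265 and 0.221 to 0.298), and in F1 females it was 0.287 to 0.496 in control animals and 0.128 to 0.208 after sGC.

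F2 sGC females had PRIMA1 values of 18.5, 14.9, 16.7 and 15.7 CPM, all above the controls at 14.5, 11.8, 14.2 and 11.3 CPM. The closest pair was 14.9 CPM in an sGC animal and 14.5 CPM in a control. The log2 fold change was 0.35 (SE 0.11), with an FDR of 0.162 by edgeR's quasi-likelihood test, in animals whose mature oligodendrocyte sums were 3251 to 5041 CPM in control animals and 4821 to 11351 CPM in sGC females (0 of 8 passing). F3 controls were split, at 36.0 and 36.6 CPM for replicates 1 and 3 and 24.5 and 25.2 CPM for replicates 2 and 4, and the sGC animals had 31.3, 37.3, 33.4 and 36.6 CPM (log2 fold change 0.18, SE 0.14, FDR 0.566 by the same test). Over the 8 groups the mean ran from 11.1 CPM in F1 sGC females through 12.1 CPM in control males, 12.9 and 16.5 CPM in F2 control and sGC females, 16.9 CPM in sGC males, 27.3 CPM in F1 female controls and 30.6 CPM in F3 controls to 34.6 CPM in F3 sGC females. Ranges of neighbours in this order overlapped at 6 of 7 steps, with the gap between the F2 control and F2 sGC females.

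**Figure D2:**
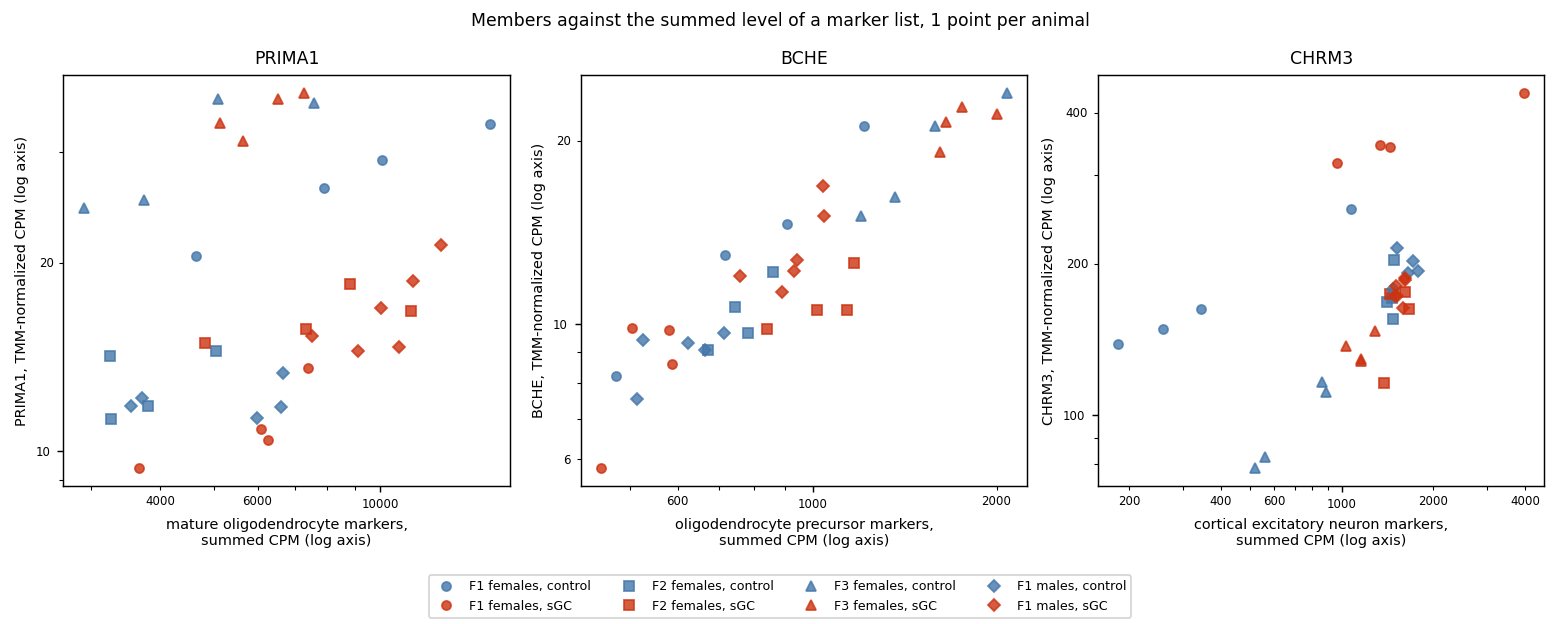
TMM-normalized CPM of PRIMA1, BCHE and CHRM3 (vertical log axes) against the summed CPM of mature oligodendrocyte, oligodendrocyte precursor and cortical excitatory neuron markers (horizontal log axes), with 1 point per animal, symbols for the table and colours for control (blue) and sGC (red). In the CHRM3 panel 3 of the F1 female controls lie at the far left, at 185 to 346 CPM of excitatory markers, and F1 sGC female replicate 4 lies at the far right, at 3976 CPM.

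Counted over each table, F1 females had 3 of 8 tested genes passing (CHRM2, CHRM3 and CHRNA4, all higher after sGC), or 37.5%, where 16.5% of all 11268 genes tested passed. In F1 males 2 of 9 passed (BCHE and PRIMA1, both higher), or 22.2%, against 9.22% of all 11524 genes tested. PRIMA1 is in this count because of its change in F1 females of these data, and without it only BCHE passed. In F2 females 0 of 9 passed by edgeR's quasi-likelihood test, by its likelihood ratio test or by DESeq2, where 0.278% of all genes passed by the first of these (31 genes, against 534 and 473 by the others). At an unadjusted p under 0.05 there were 5 of 9 in F2 females, where 16.1% of all genes reached it. In F3 females 0 of 9 passed by the quasi-likelihood test, where 1.34% of all genes did (153 of 11420), and 3 passed by each of the other tools, by which 616 and 632 of all genes passed. At an unadjusted p under 0.05 there were 5 of 9 in F3 females, where 17.3% of all genes reached it. Each table had 2 tested genes whose control and sGC animals did not overlap: CHRM3 and CHRNA4 in F1 females, CHRM1 and PRIMA1 in F2 females, CHRM2 and CHRM3 in F3 females, and BCHE and PRIMA1 in F1 males. The share of all tested genes without overlap was 23.2% in F1 females, 8.09% in F2 females, 10.3% in F3 females and 6.29% in F1 males. Absolute log2 fold changes of the tested cholinergic genes had medians of 0.52, 0.17, 0.18 and 0.16 in F1, F2 and F3 females and F1 males, and those of all tested genes had medians of 0.17, 0.10, 0.09 and 0.09.

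**Figure D3:**
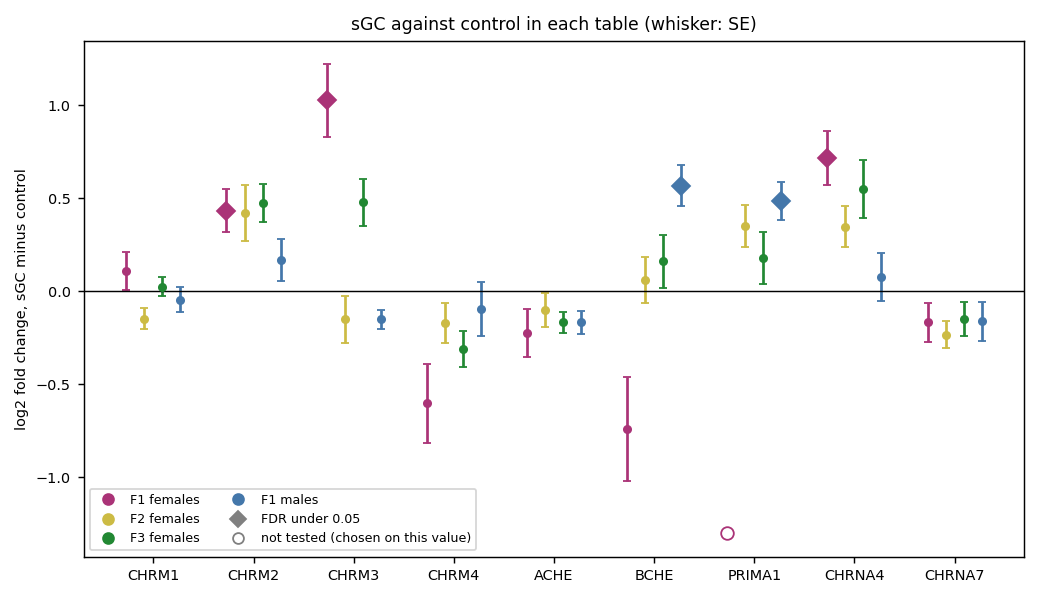
Log2 fold change of sGC over control (vertical axis) for each of the 9 genes in F1, F2 and F3 females and F1 males (colours); whiskers are SE, diamonds passed an FDR of 0.05 and the open circle is PRIMA1 in F1 females, which was not tested. CHRM3 is at 1.03 in F1 females and -0.15 in F1 males, and BCHE is at -0.74 and 0.57 in the same tables.

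Whether the responses differed between sexes or generations was tested directly with interaction terms. Between F1 females and F1 males 3 of 8 tested genes differed, or 37.5%, where 31.7% of all genes did. The CHRM3 response was lower in males by 1.18 on the log2 scale (interaction -1.18, SE 0.19, FDR 0.000219 by edgeR's quasi-likelihood test). The BCHE response was higher in males by 1.30 (SE 0.28, FDR 0.00211). The CHRNA4 response differed by -0.65 (SE 0.21, FDR 0.0259) and was lost without F1 sGC female replicate 2 (FDR 0.0604) or replicate 4 (FDR 0.0512), while the other interactions of this pair held in all 19 such fits. The sexes were sequenced to different depths and counted in separate tables, so sex and table cannot be told apart in these terms. The F1 female side also rests on the controls with low excitatory marker sums given above, and the part of those sums was not tested.

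Between F1 and F2 females 1 of 8 genes differed, where 13.8% of all genes did. This was CHRM3, with an interaction of -1.18 (SE 0.25, FDR 0.00993 by edgeR's quasi-likelihood test) that held in all 16 fits with 1 animal left out. Between F1 and F3 females 0 of 8 genes differed by any of the 3 tests, where 0.0981% of all genes did by the quasi-likelihood test (11 genes, against 114 by the likelihood ratio test and 201 by DESeq2). At an unadjusted p under 0.05 there were 2 of 8, where 15.8% of all genes reached it. Those 2 were BCHE (interaction 0.88, SE 0.32, FDR 0.220 by edgeR's quasi-likelihood test) and CHRM3 (-0.56, SE 0.24, FDR 0.281 by the same test). The interaction of CHRM2 between F1 and F3 females was 0.03 (SE 0.16) and that of CHRNA4 -0.19 (SE 0.23). Between F2 and F3 females 0 of 9 differed by any of the 3 tests, where 0.018% of all genes did by the quasi-likelihood test (2 genes, against 93 and 126 by the others). At an unadjusted p under 0.05 there were 2 of 9, where 11.5% of all genes reached it, and CHRM3 had an interaction of 0.63 (SE 0.19, FDR 0.255 by edgeR's quasi-likelihood test).

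The wider cholinergic pathway was read from a list of 53 other genes covering further receptor subunits, choline supply, esterase anchors, receptor chaperones and the Gq and Gi arms, of which 36 were tested in each table. In F1 females 10 passed as higher and 1 as lower, or 30.6% against the 16.5% of all genes given above. KCNJ3, a potassium channel subunit opened by Gi-coupled receptors such as M2, rose from 48.5 ± 7.26 to 102 ± 15.8 CPM (SD, n = 4 each), with log2 fold change 1.07 (FDR 0.00390 by edgeR's quasi-likelihood test). CHRNA5, an accessory nicotinic subunit that joins CHRNA4 receptors in deep cortical layers, rose from 4.41 ± 0.858 to 8.12 ± 1.34 CPM (log2 fold change 0.88, FDR 0.0155). KCNQ3, a subunit of the M-current channel that M1 signalling closes, rose by 0.50 on the log2 scale (FDR 0.0197). LYPD6, a Ly6-family modulator of nicotinic receptors, and GNAI1, an inhibitory G protein subunit, rose by 0.56 (FDR 0.0175) and 0.44 (FDR 0.00564) on that scale. GNAI1 has a second row in some tables that differs only in letter case, so its level is uncertain. All these rises were measured in the F1 females whose excitatory, striatal, astrocyte and microglia sums differed as given for CHRM3. The part of those sums in the rises was not tested. ADCY5, the main adenylyl cyclase of striatal neurons, fell from 370 ± 117 to 172 ± 30.1 CPM (log2 fold change -1.10, FDR 0.0150 by the same test), alongside the striatal marker sum of those animals, whose part in the result was not tested.

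In F2 females 0 of 36 pathway genes passed by edgeR's quasi-likelihood test, with 9 at an unadjusted p under 0.05, which 16.1% of all genes reached. In F3 females 1 of 36 passed, or 2.78% against 1.34% of all genes: RIC3, a chaperone that assembles nicotinic receptors, rose by 0.27 on the log2 scale (SE 0.05, FDR 0.0498). This FDR lay just under the threshold, and no other fit is given for RIC3. The excitatory marker sums given for CHRM3 were also higher in every F3 sGC female than in any F3 control, and their part was not tested. In F1 males 2 of 36 passed, both higher, or 5.56% against 9.22% of all genes. SLC44A1, a choline transporter, rose from 133 ± 25.3 to 215 ± 29.7 CPM (log2 fold change 0.69, FDR 0.00602 by edgeR's quasi-likelihood test), in animals whose oligodendrocyte marker sums were higher as given above, and their part in the result was not tested. The median log2 fold change of the list was 0.15, 0.12, 0.15 and -0.06 in F1, F2 and F3 females and F1 males, where that of all tested genes was -0.03, 0.01, -0.01 and 0.00. Of cells that make acetylcholine, the defining markers CHAT and SLC18A3 were not analysed in any table, and the choline transporter SLC5A7 had counts only in F3 females, at 0.176 to 3.07 CPM.

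**Figure D4:**
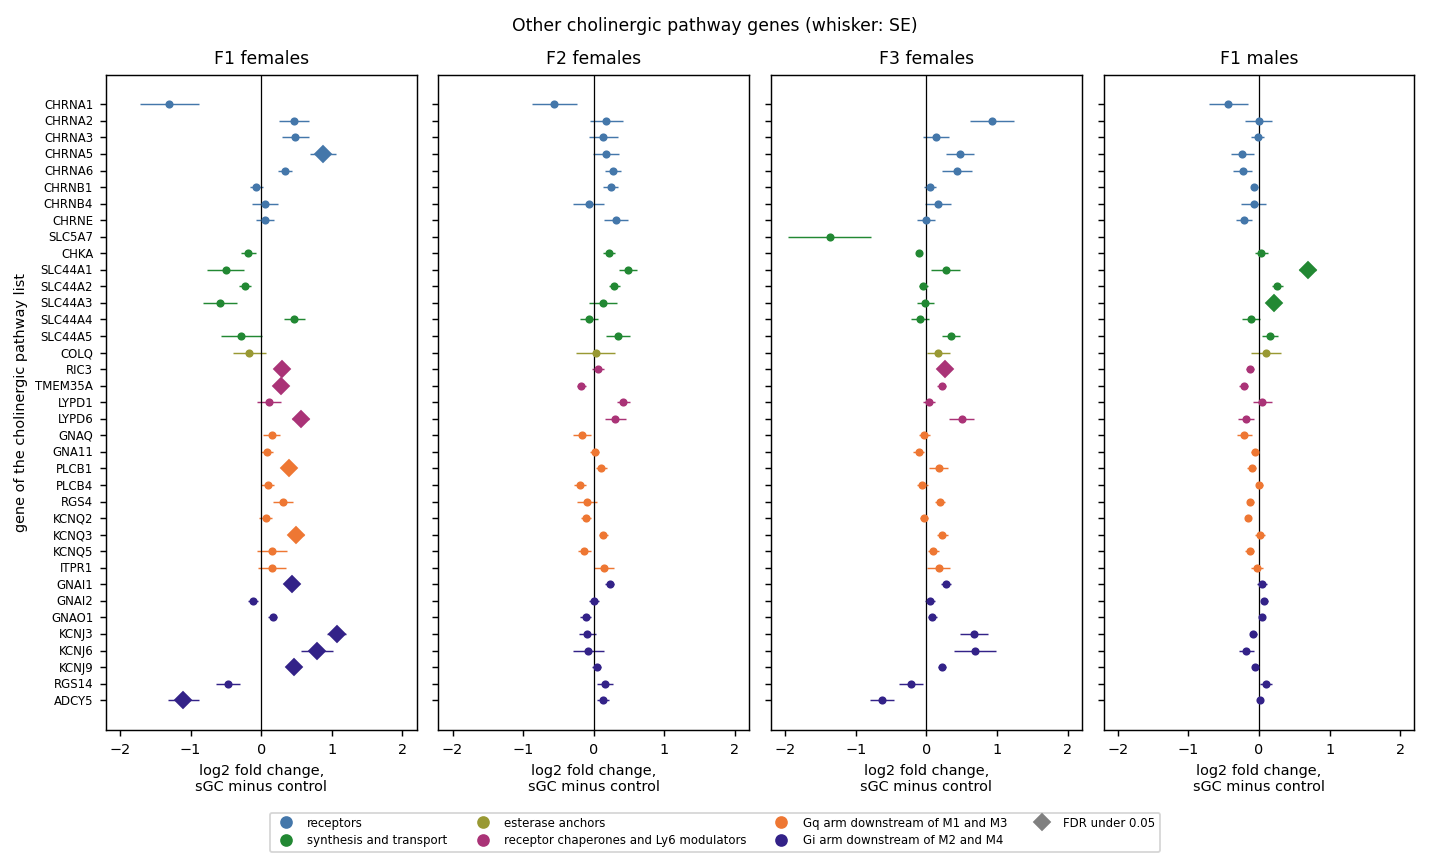
Log2 fold change of sGC over control (horizontal axis) with its SE for the genes of the wider cholinergic list (vertical axis), in 1 panel per table, coloured by role, with diamonds for genes at an FDR under 0.05. Diamonds in the F1 female panel lie mostly to the right of 0, with ADCY5 at -1.10, and the F2 female panel has none.

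The genes whose level followed each member most closely from animal to animal were ranked by Pearson's r of log2 CPM over 35 animals after the mean of each of the 8 groups was removed, among 10728 genes, as a description in which the highest values were picked. PRIMA1 was followed most closely by PLEKHH1 (0.88), ASPA (0.87), ENPP4 (0.87), PLA2G16 (0.86) and PLEKHB1 (0.86). ASPA, an enzyme that splits N-acetylaspartate, is known from oligodendrocytes. BCHE was followed by WIPF1 (0.94), TSPAN15 (0.93), ERBB3 (0.91), a neuregulin receptor of the oligodendrocyte lineage, CCDC152 (0.91) and PHLDB1 (0.89). PRIMA1 and BCHE followed each other with an r of 0.77, and of 0.69 when the F1 females were left out. With the F1 females left out, the values for the genes named for PRIMA1 lay between 0.78 and 0.84 and those for BCHE between 0.81 and 0.89.

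The receptors had other companions. CHRM3 was followed most closely by ARHGAP10 (0.84), PKP1 (0.83), KCNJ3 (0.82), ATP2B4 (0.82) and SV2B (0.81), of which KCNJ3 is the channel subunit described above. CHRM2 was followed by ADCK2 (0.77), SSTR1 (0.73), a somatostatin receptor, NEFL (0.73), a neurofilament protein, PLXDC2 (0.72) and PHOSPHO1 (0.72). CHRM4 was followed by LRTM2 (0.83), CRY2 (0.78), TNFRSF1B (0.78), KCNH4 (0.77) and RASD1 (0.77), and CHRM1 by ACKR1 (0.80), PHYHIP (0.79), SEMA6B (0.78), ICAM5 (0.76), an adhesion molecule of telencephalic neurons, and GRINA (0.75). Without the F1 females, the values for the genes named lay between 0.70 and 0.88 for CHRM3 and between 0.67 and 0.78 for CHRM2. They lay between 0.69 and 0.79 for CHRM4 and between 0.56 (GRINA) and 0.73 for CHRM1. All values of an animal come from a single library and share its depth and the makeup of its punch.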

How the data were processed

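Total RNA from mPFC punches of 35 guinea pigs was sequenced as single 51 bp reads after mRNA enrichment (TruSeq V2). The values used are the gene-level read counts deposited by the authors in 4 tables, 1 per generation and sex, not normalized; TopHat2 and edgeR appear in the submitters' processing notes, and the read counter, annotation and genome build are not given in the sources used here. The tables also hold the authors' own dispersions, fold changes, mean log CPM, test statistics, p-values and FDRs, which were not used. Because multi-mapping rules and strand handling are unknown, paralogs and overlapping genes can share reads. Where a symbol appeared in 2 letter cases (GNAI1, GSTM2, SKP1) the upper-case row was used.

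Groups came from the sample titles. Counts were scaled by TMM to CPM, which moved no CPM of the genes described by more than 4.43%. Genes were kept by edgeR's filterByExpr (minimum count 10, minimum total 15) and sGC was compared with control within each table by edgeR's quasi-likelihood test, with Benjamini-Hochberg adjustment (FDR) over all genes tested and a threshold of 0.05. Differences between tables were tested as interactions over genes present in both. PRIMA1 was not tested in F1 females or in interactions with them. R 4.3.3, edgeR 4.0.16, limma 3.58.1 and DESeq2 1.42.0 were used, and the scripts were tested on simulated data. P-values set the difference between groups against the spread between these animals. The animals are taken as independent, which the methods do not state of the males' litters. No libraries were duplicates.

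Alternatives were RLE and upper-quartile normalization, no filter and a CPM filter of 1, edgeR's likelihood ratio test, DESeq2, a single fit of all animals, a replicate block and leaving out each animal. The genes described, the pathway and marker lists and the tests were chosen with earlier results of these data known. All 9 genes were named in each table. Genes of the pathway list were named where they passed with no overlap between groups, up to 6 per table by smallest p. The 5 genes most like PRIMA1, BCHE and each muscarinic receptor were named by correlation (log2 CPM, prior count 2). A gene of the pathway list and a gene of the excitatory neuron marker list are not reported here and were left out of the lists' counts and sums.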

Additional observations from a re-analysis of the deposited data

Results flagged for a closer look

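A single animal stood apart from the rest of its group in 3 of 72 groups of a gene and condition, where chance marks about 1 in 20. CHRM2 was 20.9 CPM in F1 sGC female replicate 2 against 27.8 to 28.9 CPM in the other 3. BCHE was 7.53 CPM in F1 control male replicate 3 against 9.06 to 9.67 CPM in the other 4. CHRNA7 was 39.7 CPM in F1 sGC male replicate 6 against 28.1 to 31.2 CPM in the other 5.

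The response to sGC differed between F1 males and F1 females by edgeR's quasi-likelihood interaction test for CHRM3 (male minus female -1.18 on the log2 scale), BCHE (1.30) and CHRNA4 (-0.65). It differed between F2 and F1 females for CHRM3 (F2 minus F1 -1.18). Neither sex nor generation can be told apart from the table in these terms.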

How the results depend on the processing

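Over the processing alternatives, the block included, 303 of 316 values kept their direction and side of the threshold. The number of the genes described that passed became 5 in F1 females when all animals were fitted together (CHRM4 and BCHE added), and 3 in F3 females with the likelihood ratio test and 3 with DESeq2. CHRM1 in F3 females turned to -0.0017 (log2) under upper-quartile normalization. Leaving out 1 animal gave 2 to 4 genes in F1 females, 0 to 1 in F2 females, 0 to 4 in F3 females (4 without control replicate 1) and 2 to 3 in F1 males, and 2 to 3, 1 to 3, 0 to 0 and 0 to 0 interactions for F1 females with F1 males, F1 with F2, F1 with F3 and F2 with F3 females. Directions turned, at values near 0, for BCHE in F2 females (-0.016 to 0.14 over these fits), CHRM1 in F3 females (-0.0082 to 0.060) and, in F1 males, CHRM1 (-0.073 to 0.0086), CHRNA4 (-0.0046 to 0.15) and CHRM4 (-0.17 to 0.017). The cause was not tested.

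Same-numbered animals of control and sGC groups did not consistently deviate together (correlations from -0.34 to 0.34). This gave no sign that the numbers pair them, but 4 or 5 pairs per table are too few to exclude it. With the replicate block 3, 0, 0 and 2 of the genes described passed in F1, F2 and F3 females and F1 males and 3, 1, 0 and 0 interactions, and the block changed none of their 40 values' calls.

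Among all genes, the number passing in F2 females was 31, against 534 by the likelihood ratio test, 473 by DESeq2, 70 with upper-quartile normalization, 76 unfiltered, 53 with the block and 10 in the single fit. In F3 females it was 153, against 616, 632, 67 with the block and 396 in the single fit. In F1 females it was 1864, against 1080 with the block and 3327 in the single fit. Interactions of F1 with F3 females numbered 11, against 114, 201, 18 with upper-quartile normalization and 0 with the block, and those of F2 with F3 females 2, against 93, 126, 4 with RLE, 4 with upper-quartile normalization and 9 with the block. Leaving out 1 animal moved the all-gene numbers, and with them the shares the cholinergic genes are read against, by over 1.5 times: 613 (without control replicate 3) to 2115 in F1 females, 0 (without control replicate 2) to 487 (without sGC replicate 2) in F2 females, 20 (without control replicate 4) to 598 (without control replicate 1) in F3 females and, from 1062, 667 (without sGC replicate 4) to 1613 (without sGC replicate 6) in F1 males. The fewest reads behind a value of these genes were 84, for BCHE in an F1 female.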
